A study of Mus musculus with 15 samples.

Results

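Cell cycle inhibitors and p53 targets were followed in cultured mouse white adipocytes that had spent 0, 1 or 12 days at 31°C, which is cooler than the usual culture temperature. The 10 genes were listed by name, with no threshold on their measured values but with earlier results of these data known, and are Cdkn1a, Cdkn1b, Cdkn2a, Cdkn2b, Cdkn2c, Rb1, Trp53, Mdm2, Ccng1 and Gadd45a. The count table held 18804 genes, of which 14293 had enough counts to be tested, and all 10 genes were among these. The adipocytes were made in culture from mesenchymal stem cells of C57BL/6J mice, which by the study's methods were precursors from the ear. For all 15 libraries the cells received methylisobutylxanthine, dexamethasone, insulin and a thiazolidinedione (troglitazone per the labels) to start adipogenesis. All were harvested on day 16. Cells of the day 0 group were kept at 37°C, those of the day 1 group entered 31°C on day 15 and those of the day 12 group on day 4, with 5 libraries in each group. Time at 31°C and the stage of differentiation at the move therefore cannot be told apart. Whether the 5 libraries per group represent separate mice or dishes of 1 preparation is not given in the sources used here, so p-values measure the spread between these libraries, which may be technical.

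Progress through the cell cycle is driven by cyclins bound to cyclin-dependent kinases (CDKs), which phosphorylate the retinoblastoma protein encoded by Rb1 and so free E2F transcription factors. The CIP/KIP inhibitors p21 (Cdkn1a) and p27 (Cdkn1b) bind cyclin-CDK complexes, while the INK4 inhibitors p16 (Cdkn2a), p15 (Cdkn2b) and p18 (Cdkn2c) bind CDK4 and CDK6. The transcription factor p53, encoded by Trp53, switches on Cdkn1a, Ccng1, Gadd45a and Mdm2, and the Mdm2 protein in turn marks p53 for degradation, which makes a negative feedback loop. Because p53 is controlled largely through the stability and modification of its protein, the level of its mRNA is not a measure of its activity. In adipocyte biology these genes are known for the exit from the cell cycle that accompanies differentiation and for senescence of adipose progenitors.

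A p53 response element can be read in the Cdkn1a promoter, and it is shown because it ties the inhibitor to the p53 targets described with it. The windows searched ran from 250 bases before to 50 bases after each RefSeq transcript start (GRCm38.p6), with 12 windows for 9 of the genes. The stretch below lies on the plus strand at chr17:29090893-29090978 and ends beside the upstream of Cdkn1a's starts, with both CATG cores of the element in capitals.
Cdkn1a: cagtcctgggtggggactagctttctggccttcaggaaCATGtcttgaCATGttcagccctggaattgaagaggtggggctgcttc
The motif searched, CATGNNNNNNCATG, reads the same on both strands. It was found in 1 of the 12 windows and in 0.712% of 32851 promoter windows of all genes. Its first base lay 48 bases before the start, and the other start of Cdkn1a lies 2790 bases away.

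An E2F motif, TTTCCCGC, searched on both strands, was found in 1 of the 12 windows, that of the upstream start of Cdkn2a, and in 1.07% of all windows. The locus has starts 12427 bases apart, the upstream one for the p19Arf transcript and the downstream one for p16Ink4a. The stretch below lies on the minus strand at chr4:89294695-89294734, with the motif in capitals, 99 bases before the upstream start.
Cdkn2a: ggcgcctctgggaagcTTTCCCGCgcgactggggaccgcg
A second E2F form, TTTGGCGC, was found in 0 of the 12 windows (0.514% of all windows), and the cell cycle motif TTTGAA in 1, that of Cdkn2b (17.9% of all windows). These matches are letters in the reference sequence, and the factors' binding was not measured in the data used here.

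At day 12 the transcripts of p21 and of the p53 targets were lower than in cells kept at 37°C. Cdkn1a fell to 0.394 of its day 0 level, Ccng1 to 0.374, Gadd45a to 0.447, Mdm2 to 0.618 and the INK4 gene Cdkn2b to 0.603. Cdkn1b, Cdkn2a, Cdkn2c, Rb1 and Trp53 did not pass the test, which required a Benjamini-Hochberg adjusted p under 0.05 from edgeR and a fold change over 1.5. So 5 of the 10 genes were called lower and 0 higher at day 12 against day 0, where 16.2% of all genes tested were called lower and 12.9% higher. The median log2 fold change was -0.57 over the 10 genes and 0.01 over all genes tested. At day 1 against day 0, 2 of the 10 genes were called lower (Cdkn1b and Ccng1) and 0 higher, against a background of 13.4% lower and 7.69% higher. Their median log2 fold change was -0.21 at day 1, and that of all genes was -0.01. At day 12 against day 1, 4 of the 10 were called lower (Cdkn1a, Mdm2, Ccng1 and Gadd45a) and 0 higher, where 8.50% of genes tested were called lower and 10.6% higher. Without the fold limit, 8, 10 and 10 of the genes had an adjusted p under 0.05 in these comparisons, and so did 71.3%, 76.4% and 67.1% of all genes tested. With this precision a small difference passes the p-value limit, so the fold sets most of the calls.

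**Figure D1:**
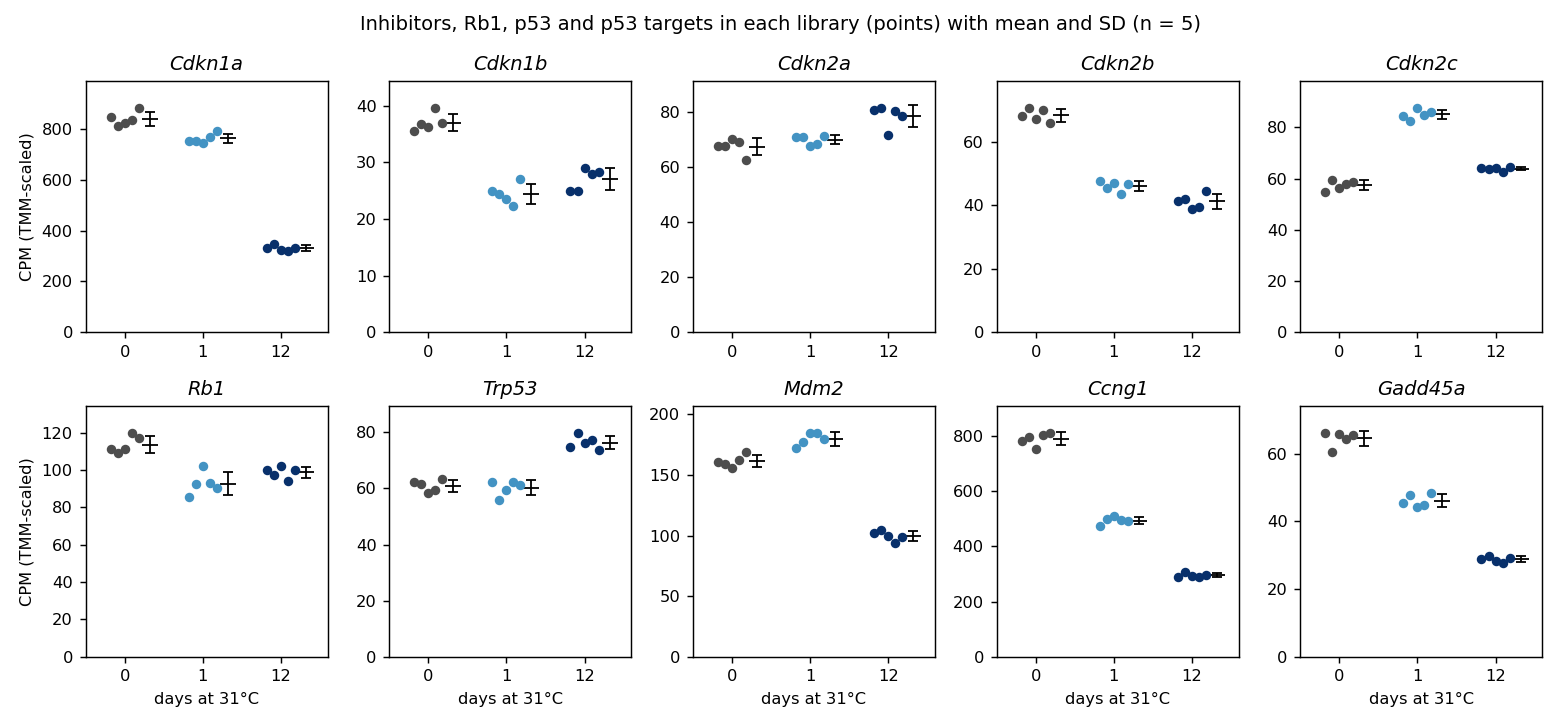
TMM-scaled CPM (read counts relative to library size, y axis, from 0) of each of the 10 genes against days at 31°C (x axis), with a point per library and the mean and SD of the 5 libraries beside them. Cdkn1a, Ccng1, Gadd45a and Mdm2 have their lowest 5 points at day 12, while Cdkn2c is highest at day 1 and Trp53 at day 12.

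**Figure D2:**
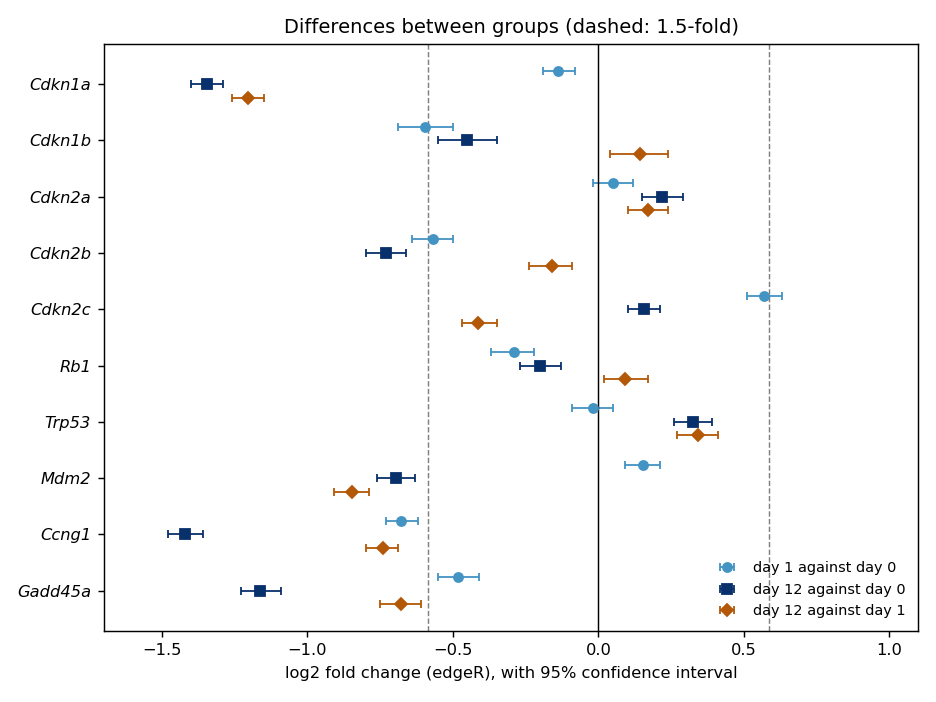
log2 fold change (x axis) of each gene in the 3 comparisons, with 95% confidence intervals from edgeR and dashed lines at 1.5-fold. Among the values against day 0, those of Ccng1 (-1.42), Cdkn1a (-1.34) and Gadd45a (-1.16) at day 12 lie farthest from 0. At day 12 against day 1, Cdkn1a is at -1.21.

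The unit of level is CPM, read counts divided by a TMM-adjusted library size. Cdkn1a, on chromosome 17 (29090976 to 29100727, GRCm38), was one of the most abundant of the 10 transcripts. It stood at 850, 814, 825, 836 and 885 CPM in the 5 day 0 libraries, at 756, 755, 748, 772 and 794 CPM at day 1, and at 333, 348, 323, 322 and 333 CPM at day 12. All 5 day 12 libraries lay below every other library, and the day 1 libraries lay just below those of day 0, without overlap. The mean of 842 ± 27.4 CPM (SD, n = 5) at day 0 stood against 765 ± 18.2 CPM at day 1, a log2 fold change of -0.14 ± 0.0274 (SE) that was under the fold limit (edgeR adjusted p = 5.07e-05). At day 12 the mean was 332 ± 10.4 CPM, a fall of 60.6% (log2 fold change -1.34 ± 0.0279, edgeR adjusted p = 1.64e-26). The log2 difference at day 1 was 10.3% of that at day 12. Of its exon bases, 7.68% also lie in a gene on the opposite strand, and strandedness of the counting was not stated in the sources used here. In bulk RNA of this kind, fewer cells that carry a transcript and less of it per cell cannot be told apart.

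Cdkn1b encodes p27, which holds cells in a resting state. Its transcript was the least abundant of the 10 per kilobase of exon. It stood at 35.6, 36.7, 36.3, 39.6 and 36.9 CPM at day 0, at 25.0, 24.4, 23.6, 22.3 and 27 CPM at day 1, and at 25.0, 24.9, 29.0, 28 and 28.3 CPM at day 12. The day 0 libraries were above all others, and the day 1 and day 12 libraries overlapped. Cdkn1b fell by 33.8% at day 1 (log2 fold change -0.60 ± 0.0485, edgeR adjusted p = 7.18e-12), which lies just past the fold limit. The call was lost when day 0 replicate 4 (-0.57), day 1 replicate 3 (-0.58) or day 1 replicate 4 (-0.56) was left out, with scaling to total counts (-0.57) and with a test against the fold limit itself. At day 12 the log2 fold change of -0.45 ± 0.0482 did not reach the limit.

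Of the INK4 genes, Cdkn2a and Cdkn2b are neighbours on chromosome 4 (89274471 to 89294653 and 89306299 to 89311039, both on the minus strand), and the ratio of their reads is given beside their own values. Cdkn2b stood at 68.1, 70.7, 67.3, 70.0 and 65.8 CPM at day 0, at 47.6, 45.4, 47.0, 43.7 and 46.7 CPM at day 1, and at 41.2, 42.0, 38.9, 39.4 and 44.6 CPM at day 12. The day 0 libraries lay above all others, and those of day 1 and day 12 overlapped. Its log2 fold change of -0.57 ± 0.0357 at day 1 was just inside the limit, and that of -0.73 ± 0.0359 at day 12 was past it (edgeR adjusted p = 1.92e-17). The day 12 call of Cdkn2b was lost with scaling to total counts (-0.54), and at day 1 it was called with scaling to 3 reference genes (-0.67).

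Cdkn2a stood at 67.7, 67.9, 70.3, 69.3 and 62.5 CPM at day 0, at 70.9, 71.0, 67.9, 68.5 and 71.5 CPM at day 1, and at 80.7, 81.6, 71.8, 80.5 and 78.7 CPM at day 12. The day 0 and day 1 libraries overlapped, and all 5 day 12 libraries were above them, replicate 3 by the least. At day 1 the log2 difference was 0.05 with a 95% interval of -0.02 to 0.12 (edgeR adjusted p = 0.193), and its sign turned with scaling to the reference genes. At day 12 it was 0.22 ± 0.0346, under the fold limit. Reads of Cdkn2a per read of Cdkn2b came to 0.988 ± 0.037 (SD, n = 5) at day 0, then 1.52 ± 0.0529 at day 1 and lastly 1.91 ± 0.108 at day 12, and the 3 ranges did not overlap. This ratio is taken within each library and does not depend on the scaling between libraries. The ratio was chosen after the values were seen and is given without a test. The counts do not separate p16Ink4a from p19Arf, which share exons of Cdkn2a.

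Cdkn2c, on the same chromosome (109660876 to 109667189), was the one inhibitor with its highest level at day 1. It stood at 54.7, 59.5, 56.4, 57.8 and 58.6 CPM at day 0, at 84.4, 82.6, 87.6, 84.7 and 86.1 CPM at day 1, and at 64.3, 63.9, 64.0, 62.7 and 64.6 CPM at day 12. The 3 groups did not overlap. The log2 fold change at day 1 was 0.57 ± 0.0285, a fold of 1.48 that lay just under the limit (edgeR adjusted p = 5.96e-17), and it was past the limit with scaling to total counts (0.59). At day 12 it was 0.16 ± 0.0286 against day 0 and -0.41 ± 0.0285 against day 1, neither past the limit.

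Rb1, the pocket protein that the inhibitors keep active, ranged from 109 to 120 CPM at day 0, from 85.5 to 102 CPM at day 1 and from 94.2 to 102 CPM at day 12. The day 0 libraries were above all the others. Its log2 fold changes were -0.29 ± 0.0361 at day 1 and -0.20 ± 0.0360 at day 12, both under the fold limit. Of its exon bases, 14.9% also lie in Lpar6 or Rcbtb2 on the opposite strand, whose log2 fold changes at day 12 were -0.58 and -0.19.

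Trp53 and Mdm2 had log2 differences of opposite sign at day 12. Trp53 stood at 62.3, 61.5, 58.3, 59.3 and 63.2 CPM at day 0, at 62.3, 55.8, 59.5, 62.3 and 61.1 CPM at day 1, and at 74.9, 79.9, 76.3, 77.1 and 73.6 CPM at day 12. Day 0 and day 1 overlapped over most of their range, and the 5 day 12 libraries were above both. The log2 difference of Trp53 was -0.02 at day 1, with a 95% interval of -0.09 to 0.05 (edgeR adjusted p = 0.662), and 0.33 ± 0.0332 at day 12, a fold of 1.25 that did not reach the limit. Its sign at day 1 turned with scaling to total counts and without day 1 replicate 2.

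Mdm2 stood at 161, 159, 156, 162 and 169 CPM at day 0, at 172, 177, 185, 185 and 180 CPM at day 1, and at 102, 105, 99.5, 94.0 and 98.8 CPM at day 12. The 3 groups did not overlap, with day 1 the highest and day 12 the lowest. At day 1 the log2 fold change was 0.15 ± 0.0296, under the limit. At day 12 Mdm2 fell by 38.2% (log2 fold change -0.70 ± 0.0300, edgeR adjusted p = 8.09e-19), a call that was lost with scaling to total counts (-0.50). Against day 1 the log2 difference of Mdm2 was -0.85 ± 0.0300. Reads of Mdm2 per read of Trp53, which need no scaling between libraries, came to 2.65 ± 0.0689 (SD, n = 5) in the day 0 group, 2.99 ± 0.157 in the day 1 group and 1.31 ± 0.0544 in the day 12 group. Those of Cdkn1a per read of Trp53 were 13.8 ± 0.390, 12.7 ± 0.541 and 4.34 ± 0.142. For both ratios the day 12 range lay below every library of the other groups, given as a description with no test.

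Ccng1, which encodes the p53-induced cyclin G1, had the largest fold change of the 10 genes at both days in the main test. It stood at 780, 797, 754, 805 and 812 CPM at day 0, at 475, 498, 509, 494 and 490 CPM at day 1, and at 289, 306, 294, 289 and 297 CPM at day 12. The 3 groups were far apart, with gaps many times the spread within each. Ccng1 fell by 37.5% at day 1 (log2 fold change -0.68 ± 0.0265, edgeR adjusted p = 1.69e-19) and, by day 12, fell by 62.6% (-1.42 ± 0.0269, edgeR adjusted p = 1.92e-27). The day 1 difference was 47.7% of the day 12 difference on the log2 scale.

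Gadd45a encodes a stress-induced protein that acts in growth arrest and DNA repair. It stood at 66.2, 60.6, 65.8, 64.4 and 65.5 CPM at day 0, at 45.5, 47.8, 44.3, 44.7 and 48.3 CPM at day 1, and at 29.0, 29.9, 28.2, 27.8 and 29.1 CPM at day 12. As for Ccng1, the groups followed each other downward without overlap. Its log2 fold change was -0.48 ± 0.0340 at day 1, under the limit, and -1.16 ± 0.0348 at day 12 (edgeR adjusted p = 1.15e-22), and 41.6% of the latter was present at day 1. Of the exon bases of Gadd45a, 19.1% also lie in E230016M11Rik on the opposite strand, whose mean level was 0.549 CPM over all 15 libraries.

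The groups of single genes did not overlap for 8 of the 10 genes at day 1 against day 0, for 10 at day 12 against day 0 and for 7 at day 12 against day 1. Among all genes tested, 57.4%, 64.6% and 52.5% did not overlap in these comparisons.

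Between genes, levels were compared as CPM per kilobase of exon (GENCODE exon lengths). These lengths cover all exon blocks annotated for a gene and may exceed the transcript present. The order between genes and the inhibitor shares below depend on them. At day 0 the order was led by Cdkn1a (237 ± 7.70 CPM per kb, SD, n = 5) and Ccng1 (225 ± 6.67), whose ranges overlapped. Cdkn2a (57.6), Cdkn2b (49.2), Gadd45a (36.6), Mdm2 (31.8), Cdkn2c (21.4), Rb1 (18.9), Trp53 (15.1) and Cdkn1b (8.13 CPM per kb) followed, with no overlap between neighbours. At day 12 the same pair led, at 93.3 ± 2.92 CPM per kb for Cdkn1a and 84.0 ± 2.06 for Ccng1, now without overlap. Cdkn2a followed at 67.1 ± 3.39 CPM per kb, while Gadd45a, at 16.3, had moved to the place before the last, with a range that overlapped that of Rb1 (16.4). At day 12 the ranges of Mdm2 (19.6) and Trp53 (18.9 CPM per kb) overlapped too.

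The shares of the inhibitor genes in their summed level differed as well. The 5 inhibitor genes together held 373 ± 4.62 CPM per kb (SD, n = 5) in the day 0 group, 345 ± 6.08 in the day 1 group and 220 ± 6.37 in the day 12 group. Cdkn1a held 63.5 ± 1.34% of this sum at day 0, 62.4 ± 0.597% at day 1 and 42.5 ± 0.667% at day 12. Over the same groups the share of Cdkn2a was 15.5 ± 0.826%, 17.3 ± 0.338% and 30.5 ± 0.955%, and that of Cdkn2c was 5.73 ± 0.206%, 9.18 ± 0.233% and 10.8 ± 0.301%. Shares depend on each other, and per kilobase Cdkn2a itself stood at 57.6 CPM at day 0 and 67.1 CPM at day 12. The counts do not separate p16Ink4a from p19Arf, so the share of Cdkn2a is that of the gene and not of the p16 inhibitor.

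**Figure D3:**
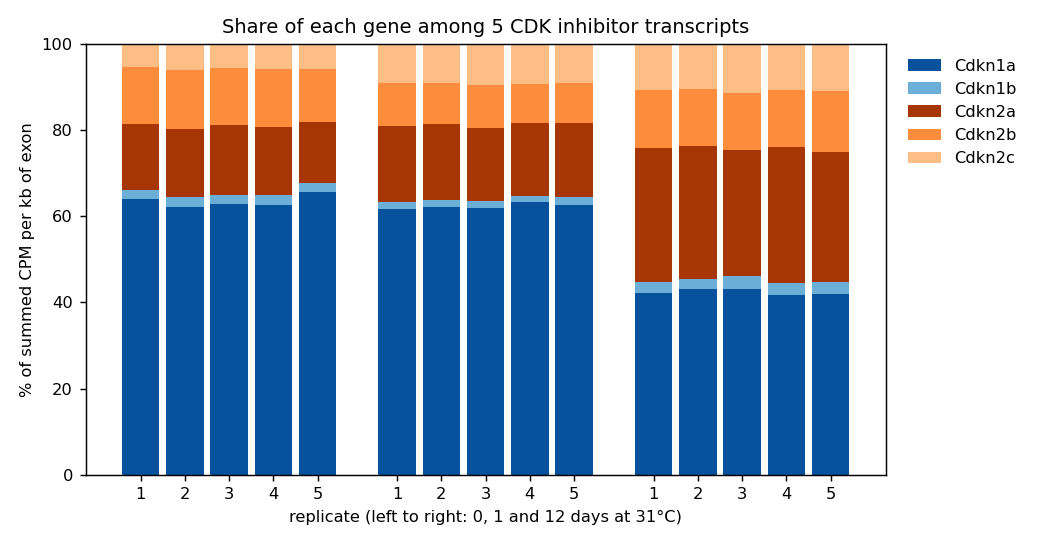
Share of each of the 5 inhibitor genes in their summed CPM per kilobase of exon (y axis, percent), as 1 stacked bar for each of the 15 libraries (x axis, replicate number, with 0, 1 and 12 days at 31°C from left to right). In the 5 day 12 bars Cdkn1a holds between 41.7% and 43.2%, against 62.2% to 65.6% in the day 0 bars.

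The scaling of the libraries bears on these values because the TMM factors were 1.08 to 1.09 at day 12 and 0.946 to 0.969 in the other groups. Scaling to total counts alone moved the median log2 fold change of all genes at day 12 against day 0 from 0.01 to 0.21, and the share of lower genes among those called from 55.7% to 35.9%. Against day 1 that share moved from 44.5% to 27.3%. Under total counts, 3 of the 10 genes were called lower at day 12 against day 0 (Cdkn1a at -1.15, Ccng1 at -1.23 and Gadd45a at -0.97), and the log2 differences of Cdkn1b, Cdkn2a, Cdkn2c, Rb1 and Trp53 became -0.26, 0.41, 0.35, -0.01 and 0.52. Scaling to Hprt, Tbp and Ppia, a set of reference genes the study used in some of its quantitative PCR, moved the median at day 1 to -0.11, the share of lower genes among those called there from 63.5% to 75.8%, and the share at day 12 against day 1 to 29.0%. It left the day 12 values of Cdkn1a at -1.29, Ccng1 at -1.36, Gadd45a at -1.11, Cdkn2b at -0.67 and Mdm2 at -0.64. The reference genes themselves differed from day 0 at day 12 in the main test, in both directions. Their log2 differences were -0.25 for Hprt, -0.27 for Tbp and 0.35 for Ppia, none past the fold limit.

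The counts for related lists stand against all genes tested, of which 12.9% rose and 16.2% fell past the limits at day 12, while at day 1 these shares were 7.69% and 13.4%. Among 30 other genes known as p53 targets, 12 were lower and 2 higher at day 12, and their median log2 fold change was -0.28 (all genes 0.01). The largest falls that the naming rule took were those of Gdf15, a stress-induced secreted factor (-2.42 ± 0.0991, from 8.42 to 1.58 CPM), and of Pidd1, a death domain protein listed under its older symbol Lrdd (-1.13 ± 0.0653). The genes that rose were Plk2, a polo-like kinase (0.76 ± 0.0327), and Tigar, a regulator of glycolysis listed as 9630033F20Rik (0.60 ± 0.0560), whose call was lost without day 0 replicate 2 or 3, with only the 2 groups compared (0.58) and with a test against the fold limit itself. At day 1, 2 of the 30 were higher, Plk2 (0.60) and Ckap2 (0.70), and 2 lower, Bbc3 (-0.74) and Rrm2b (-0.60), which is no larger a share than among all genes. Ckap2, Bbc3 and Rrm2b are named here after their values were seen. At day 1 the calls of Plk2 and Rrm2b were lost without day 0 replicate 4, and that of Rrm2b also without day 1 replicate 4 and with the library number series as a covariate or its larger series alone. At day 12 against day 1, 0 of the 30 were higher and 9 lower (all genes 10.6% and 8.50%), and the tests were those of the fit over all genes, with no test of the list itself.

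Of 14 regulators and relatives of p53, 1 was higher and 1 lower at day 12, with a median log2 fold change of 0.12, shares below those of all genes (12.9% and 16.2%). Chek1, a checkpoint kinase, rose by 1.07 ± 0.172 in log2 units from a low level of 1.08 CPM, and Mdm4, a partner of Mdm2 that restrains p53, fell by 0.67 ± 0.0537 on the log2 scale. At day 1 Trp63, a p53 relative, was the only one of the 14 called, falling from 51.4 to 20.4 CPM (-1.33 ± 0.0427), while its day 12 level was 61.0 CPM. Trp73, with no library above 15 counts, was not tested. Of the 4 other Gadd45 and cyclin G genes, 0 were higher, 2 lower and 2 not called at day 12. The lower ones were Gadd45g, by 1.39 ± 0.0384, and Gadd45b, by 0.72 ± 0.0367 in log2 units, and 0 of the 4 passed at day 1.

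The other CDK inhibitors and pocket proteins numbered 5, of which 1 was higher and 1 lower at day 12. Cdkn3, a phosphatase of CDKs that is itself expressed in cycling cells, rose from 1.11 to 3.60 CPM (1.69 ± 0.129), and Cdkn1c, the third CIP/KIP inhibitor p57, fell from 43.0 to 27.5 CPM (-0.64 ± 0.0558). At day 1 Cdkn1c had its lowest level, 18.7 CPM (-1.20 ± 0.0573), and Rbl1, the pocket protein p107, was lower too (-0.63 ± 0.0680). Rbl1 was close to its day 0 level at day 12, with a log2 difference of 0.03 ± 0.0660. Of the exon bases of Cdkn1c, 30.7% also lie in another gene on the opposite strand.

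Among genes downstream of the inhibitors, more were called higher than lower at day 12. Of 9 cyclins and kinases that the inhibitors bind, 4 were higher at day 12 (Ccna2 by 2.32, Ccne1 by 0.70, Ccnd1 by 0.68 and Ccne2 by 0.67 in log2 units) and 1 was lower (Ccnd3 by 0.60), and their median log2 fold change was 0.40 (all genes 12.9% higher, 16.2% lower, median 0.01). At day 1, 0 were higher and 3 lower, which were Ccnd2 (-0.85), Ccnd3 (-0.61) and Cdk6 (-1.02). Ccnd1, Ccne2 and Cdk6 were named after their values were seen. Of 17 E2F and DREAM complex genes, 7 were higher and 1 lower at day 12, with a median of 0.52, against 12.9% and 16.2% of all genes tested. E2f8, a repressor of the E2F family, rose from 0.658 to 3.66 CPM (2.47 ± 0.148) and Foxm1, an activator of mitotic genes, from 3.72 to 16.9 CPM (2.18 ± 0.0741), while E2f1 fell from 35.8 to 15.9 CPM (-1.17 ± 0.0460). Of the exon bases of Ccnd1, Ccne2, Ccna2 and E2f8, 23.4%, 17.4%, 12.5% and 11.2% also lie in other genes. E2f1 was already at 16.3 CPM at day 1, when it, E2f2 and E2f7 (the last pair under 1 CPM, and named after their values were seen) were the genes of this list called lower. The day 1 call of E2f7 was lost without day 0 replicate 2 or day 1 replicate 1.

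Of the genes acting on the inhibitors, those that control p27 and those of the FoxO family gave 1 higher and 2 lower at day 12 among 8 tested. Cks1b, a cofactor for the destruction of p27, rose by 0.69 ± 0.0440, and Foxo1 and Foxo3, factors that can activate Cdkn1b, fell by 0.73 ± 0.0302 and 0.62 ± 0.0394 in log2 units. At day 1, 0 of the 8 were higher and 2 lower, with Foxo3 at -0.63. Among 12 regulators of the Ink4 locus, 1 was higher, the Polycomb methyltransferase Ezh2 (1.13 ± 0.0618), and 1 lower, the Polycomb reader Cbx7 (-0.80 ± 0.0519), with a median of -0.04 and 0 called at day 1. Of 9 secreted genes often measured in senescent cells, 6 were lower and 1 higher at day 12, with a median of -0.76 (all genes 16.2% lower, 12.9% higher). Gdf15 is in this list and among the other p53 targets, so its fall is counted in both. Igfbp3 fell from 95 to 27.4 CPM (-1.79 ± 0.0539), and Il6 was the gene that rose, from 31.3 to 74.6 CPM (1.25 ± 0.119). Of the genes named from these lists, Mdm4, Gadd45b, Cdkn1c, Ccnd3, Foxo1, Foxo3, Bbc3 and Rrm2b lost their day 12 call with scaling to total counts, and Rrm2b its day 1 call too. With the reference genes Ccnd3, Foxo3 and Rrm2b lost it at day 12 and Plk2 at day 1.

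**Figure D4:**
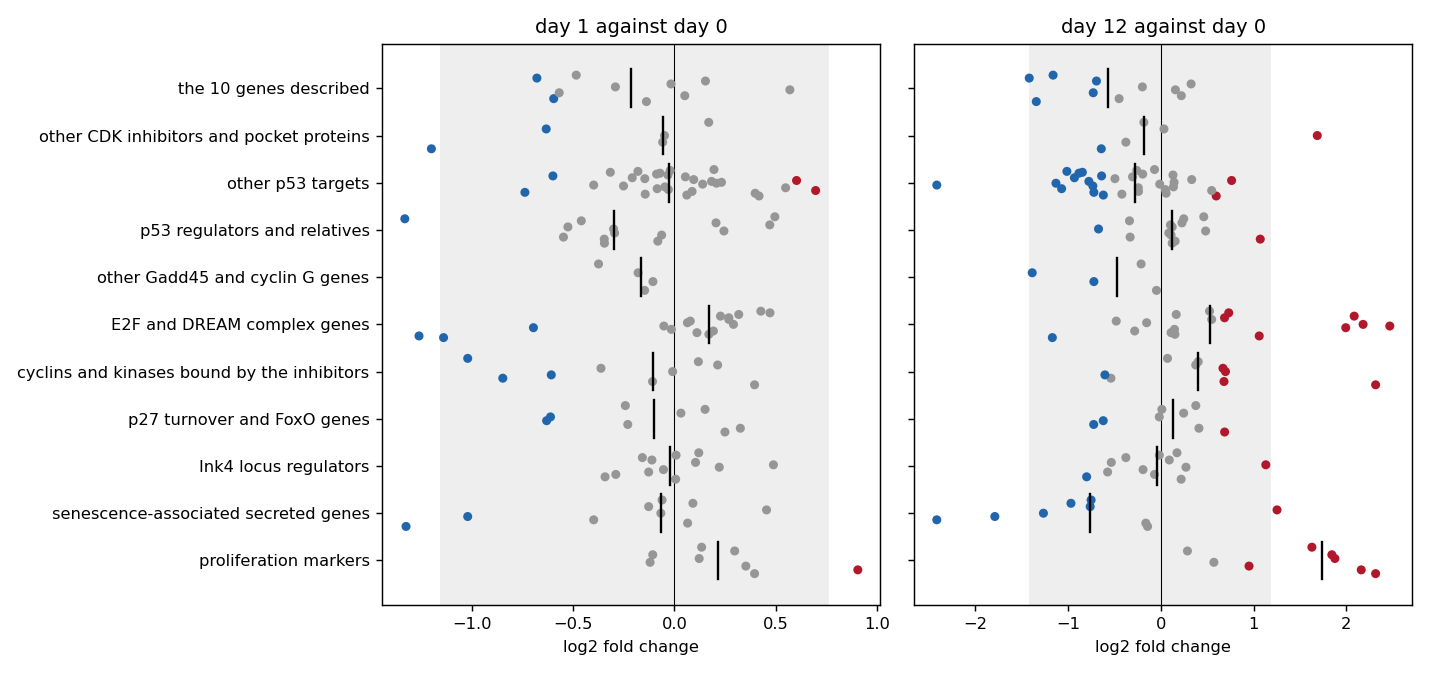
log2 fold change (x axis) at day 1 and at day 12 against day 0 of the 10 genes and of the genes in 10 related lists, with a point per gene (red called higher, blue called lower, grey not called), a bar at each list's median and a grey band from the 5th to the 95th percentile of all genes tested. At day 12 the medians run from -0.76 for the secreted genes to 1.74 for the proliferation markers.

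Markers of cycling cells moved in the same libraries. The summed level of 8 proliferation markers ranged from 108 to 124 CPM at day 0, from 126 to 139 CPM at day 1 and from 234 to 272 CPM at day 12. At day 12, 6 of the 8 were higher, Ccna2 (2.32), Ccnb1 (2.16), Mcm5 (1.88), Mki67 (1.84), Top2a (1.63) and Cdk1 (0.95), with Mcm2 at 0.57 and Pcna at 0.29 not past the limit. Ccna2 is also counted among the cyclins above. At day 1 Ccnb1 was the one called (0.90). Mki67, which cells carry only while cycling, stood at 12.6 CPM at day 0 and 45.3 CPM at day 12. The share of cells in cycle was not measured, and its part in the lower Cdkn1a, Ccng1, Gadd45a, Mdm2 and Cdkn2b was not tested.

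The label of adipocytes was checked against 7 adipocyte markers, all of which were detected, with Adipoq at 1090 ± 41.4 CPM and Pparg at 119 ± 2.23 CPM at day 0. Their summed level ranged from 3710 to 3960 CPM at day 0, from 4240 to 4530 CPM at day 1 and from 3160 to 3450 CPM at day 12, where 4 of the 7 were lower (Adipoq, Cfd, Cidec and Pparg) and 1 higher (Fabp4). The call of Pparg (-0.59) was lost with scaling to total counts or to the reference genes and without day 12 replicate 1 or 4. The 6 stromal progenitor markers summed to 1290 to 1360 CPM at day 0, 1360 to 1430 CPM at day 1 and 1110 to 1140 CPM at day 12, with Dpp4 and Pi16 at most at 12 and 9 counts. Ly6a led this list at day 0 and fell from 591 to 221 CPM at day 12 (-1.42 ± 0.0389), while Pdgfra led it at days 1 and 12 and stood at 562 CPM at day 0 and 712 CPM at day 12 (0.34 ± 0.0268, under the fold limit). The 4 chondrocyte markers, led by Col2a1, summed to 266 to 325 CPM at day 0, 264 to 299 at day 1 and 234 to 298 at day 12. Immune markers summed to at most 12.9 CPM, with Ptprc at most at 7 counts, and endothelial ones to at most 1.37 CPM. Keratinocyte markers reached at most 0.103 CPM and muscle markers 1.65 CPM. The 4 mesothelial markers summed to 1.55 to 1.99 CPM at day 0, 1.34 to 1.69 CPM at day 1 and 23.0 to 37.9 CPM at day 12, where Msln made up 96.4% of the sum, while Wt1 had at most 1 count. The part of these cell types in the results was not tested.

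The genes whose log2 CPM followed the largest changes most closely were read from Pearson correlations over the 15 libraries with 12122 genes. Such values describe mainly the 3 group levels, and between 1052 and 1212 genes passed 0.9 for each of these genes. The closest were Cpox (0.9963), Cx3cl1 (0.9960) and Tgoln1 (0.9953) for Ccng1, Clu (0.9980), Auh (0.9976) and Anxa6 (0.9976) for Cdkn1a, and Nfe2l1 (0.9977), Ddit4 (0.9974) and Derl1 (0.9965) for Gadd45a.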

How the data were processed

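The sequenced RNA libraries numbered 15 (3 groups of 5). The authors aligned reads to mm10 with TopHat2 2.0.13 and Bowtie2 2.2.1 (submitters' processing notes) and deposited whole-number counts of reads per gene from HTSeq, whose version, strand setting and annotation are not given in the sources used here. Unstranded reads of overlapping genes cannot be separated. The authors' deposited regularized log2 values and their DESeq2 comparison tables (mean, fold change, standard error, statistic, p-value and adjusted p-value per gene) were not used.

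Total counts per library were 92387376 to 133270973 (day 0), 74430465 to 105322757 (day 1) and 64648178 to 91338649 (day 12). The biological coefficient of variation of gene levels, from the edgeR dispersion common to all genes, was 5.25%. A quasi-likelihood model (edgeR 4.0.16, R 4.3.3) was fitted to all 15 libraries with TMM scaling and filterByExpr (minimum count 10), and p-values were adjusted over 14293 genes by Benjamini-Hochberg. A gene was called at an adjusted p under 0.05 and a fold over 1.5, the thresholds of the study. Standard errors were the size of the log2 fold change over the square root of F. The correlations used log2 CPM with a prior count of 2. The fit was tested on simulated data. The 3 read ratios were chosen after the data were seen and not tested.

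Groups came from the labels. The genes and lists were chosen with earlier results of these data known, so no list was tested as a set. Named were all 10 genes, for each list the 2 largest rises and 2 largest falls at day 12 among genes called at day 1 or day 12 with a mean of at least 1 CPM, all 8 proliferation markers, the 3 genes most correlated with each of the 3 largest changes, and leading or defining markers. No library pair within a group agreed within sampling noise. Correlations of same-numbered libraries' deviations were -0.026 to 0.044, under the limit of 0.1 set for pairing, so the main fit did not pair libraries by number. Alternatives were DESeq2 1.42.0, other scalings, filters and call rules, the replicate block, the library number series, and leaving out each library.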

Additional observations from a re-analysis of the deposited data

Results flagged for a closer look

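For 4 of the 10 genes the effect at day 12 differed from the effect at day 1 by the call rule applied to the contrast of both groups (edgeR adjusted p under 0.05 and a fold over 1.5), by which 8.50% of all genes tested were called lower and 10.6% higher. On the log2 scale the day 12 effect minus the day 1 effect was -1.21 for Cdkn1a, -0.85 for Mdm2, -0.74 for Ccng1 and -0.68 for Gadd45a, and in each the 5 day 12 libraries lay below all 5 day 1 libraries. With scaling to total counts Ccng1 (-0.57) and Gadd45a (-0.51) lost this call, and Gadd45a lost it with the reference genes too. For Mdm2 the sign of the log2 difference from day 0 also turned, from 0.15 at day 1 to -0.70 at day 12. The moves to 31°C fell on day 15 and day 4 of differentiation, so the time at 31°C and the stage at the move cannot be told apart. In the 30 sets of 5 libraries (10 genes in 3 groups), 0 held a library that stood apart by Dixon's 95% value of 0.71.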

How the results depend on the processing

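Each value of the 10 genes was recomputed under 27 alternatives, and 777 of 810 such values kept their direction and their side of the limits, 10 lost the call, 19 gained it and 4 changed sign. The 4 changes of sign were in values under the fold limit. In the main test these were -0.017 for Trp53 and 0.051 for Cdkn2a, both at day 1, and -0.161 for Cdkn2b at day 12 against day 1. That of Cdkn2b had a 95% interval of -0.24 to -0.09. With scaling to total counts, Trp53 at day 1 became 0.004 and Cdkn2b at day 12 against day 1 0.011, with scaling to Hprt, Tbp and Ppia Cdkn2a at day 1 became -0.048, and without day 1 replicate 2 Trp53 at day 1 became 0.01 (-0.032 to 0.01 over the libraries left out). Of other genes named, Ccne1 at day 1 became 0.011 with total counts, and Rcbtb2 at day 12 moved from -0.193 to 0. With Hprt, Tbp and Ppia the day 1 values became -0.057 for Adipoq, -0.043 for Cfd, -0.011 for Lpar6 and -0.007 for Rcbtb2. With only the 11 libraries of the larger library number series, Rbl1 at day 12 became -0.008. Leaving out 1 library gave day 1 values of -0.098 to 0.014 for Cdkn3 and -0.148 to 0.088 for E2f8 (both above 0 without day 0 replicate 2), and -0.041 to 0.023 for Ccne1.

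Of the 10 genes, 2, 5 and 4 were called at day 1 against day 0, day 12 against day 0 and day 12 against day 1. With adjusted p alone the counts were 8, 10 and 10, with total counts 3 at day 12 against day 0 and 2 at day 12 against day 1, and with glmTreat at 1.5-fold 1 at day 1. Leaving out 1 library gave 1 to 2 at day 1 (Cdkn1b was lost without day 0 replicate 4 or either of day 1 replicates 3 and 4), and 5 and 4 in the others. Over all genes, 3015, 4165 and 2729 were called, against 10189, 10923 and 9585 with adjusted p alone, and 1820 at day 1 and 1655 at day 12 against day 1 with glmTreat. Of the other genes named, glmTreat lost the day 1 calls of Rbl1, Plk2, Ccnd3, Foxo3, Rrm2b and E2f7 and the day 12 calls of Cdkn1c, Tigar, Mdm4, Ccne1, Ccne2, Ccnd3, Foxo3, Rrm2b and Pparg. Ccng1 and Gadd45a at day 12 against day 1 lost the call with total counts (-0.57 and -0.51), and Gadd45a also with the reference genes (-0.53).

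Same-numbered libraries correlated at no more than 0.044, under the limit of 0.1 set for pairing, yet 10 of the 15 correlated best with a library of their own number. These values therefore do not show that the libraries were unpaired. With the replicate block, 3002, 4172 and 2711 genes and 2, 5 and 4 of the 10 were called, and DESeq2 called 2, 5 and 4 of the 10. The same counts came from the larger library number series alone. At 1599 or more counts in every library, depth did not limit the 10 genes.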
